A study of Homo sapiens with 8 samples.

Results

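The genes described here are 50 human nucleolar factors that build ribosomes, mainly the proteins of the small-subunit processome, with several late factors of the small subunit, factors of the large subunit, abundant nucleolar proteins and factors of RNA polymerase I (Pol I). They are a list of names, and the rule used no measured value, although the list was drawn up with earlier results of these data known. Each of the 50 symbols matched 1 row among the 86369 Ensembl gene identifiers of the count table, and 47 had enough counts to be tested together with all other genes, which made 13840 tested genes in all.

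The cells were HepG2, an established line from a human hepatocellular carcinoma. The first group received a short interfering RNA against NAT10 (siNAT10) and the other a negative control siRNA (siCtrl), both by lipofection, and RNA was harvested 2 days later. Each group had 4 libraries. Per the labels, replicates 1 and 2 of both groups formed batch 1 and replicates 3 and 4 of both groups formed batch 2. The labels do not say what a batch was, nor whether replicates came from separate cultures, so the p-values measure the spread between these libraries, which may be partly technical. No engineered allele is named for either group, which share the line, the transfection and the harvest time. The libraries were 3′ mRNA-seq (Lexogen QuantSeq), in which a count stands for the 3′ end of a polyadenylated transcript and does not grow with transcript length. Levels set side by side between genes are therefore per transcript end, and they are only as good as the assignment of reads to each gene, which is uncertain for genes with copies or overlaps.

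Ribosomal RNA is transcribed by Pol I in the nucleolus as one long precursor. The small-subunit processome assembles on this precursor while it is made: the UTP-A complex binds its leading spacer, UTP-B and the U3 small nucleolar ribonucleoprotein join, and the particle folds and cuts the RNA of the small subunit. NAT10, the enzyme depleted here, acetylates cytidines of the small-subunit ribosomal RNA and acts together with this particle. The comparison asks whether the mRNAs of its partners moved when NAT10 was lowered. Genes of ribosome assembly are known to be expressed together in growing cells.

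Total counts per library ran from 9731718 to 27977110, with 17347226 to 27977110 in batch 1 and 9731718 to 22512520 in batch 2. All levels are CPM, a gene's share of its library's counts after TMM scaling, brought to a common total, and values per library are given in the order of the replicates, so that the first pair of each group is batch 1 and the second pair batch 2. NAT10 itself stood at 44.7, 39.2, 77.8 and 48.9 CPM in siCtrl and at 13.1, 12.2, 20.1 and 22.3 CPM in siNAT10, 31.6% of the control level by the fit. The groups did not overlap, and the fitted log2 fold change with batch in the model was -1.66 (edgeR adjusted p 2.0e-05). Exact permutation of the log2 CPM values (two-sided) gave p = 0.056 with libraries exchanged only within batches (36 arrangements) and p = 0.029 over all 70, the smallest each allows. The line's labelled origin was checked against 10 hepatocyte markers. APOB was at 0 in 7 of 8 libraries and SERPINA1 at 1.70 to 13.2 CPM, but the summed level was 8850 to 12040 CPM, led by ALB and TF. This sum was lower in siNAT10 (8850 to 9625 CPM) than in siCtrl (11130 to 12040 CPM), while its ranges overlapped between the batches. The markers did not move as one: FGB was not lower in siNAT10 (129.9, 96.2, 142.6 and 99.6 CPM, against 96.5, 82.8, 101.5 and 80.2 CPM in siCtrl). HNF4A, APOA1, AFP and SERPINA1 overlapped between the groups. ALB, APOA2, TF and TTR were lower in each siNAT10 library than in every control. The share of all tested genes that separate this way was not counted. By a looser rule, every siNAT10 library below both controls of its own batch, it was 7.9%. Markers of fibroblasts (5 genes), endothelium (4) and leukocytes (4) summed to at most 1.38, 0.797 and 3.90 CPM, and COL1A2, COL3A1, DCN, KDR, PTPRC and CD3E were at 0 throughout. In bulk RNA of this kind, a smaller share of cells with a transcript and less of it per cell cannot be told apart.

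Among the tested factors, 45 had a mean level of at least 15 CPM and 2 were below 2 CPM, UTP4 (0.693 CPM) and RRN3 (1.17 CPM). The median over the 47 was 46.2 CPM against 15.5 CPM over all tested genes. The nucleolar proteins nucleolin (NCL, 687.8 CPM), NOP56 (382.4 CPM) and NPM1 (216.9 CPM) had the highest listed levels, that of NPM1 with the uncertainty of its 49 pseudogenes. They were followed by NOL11 (151.6 CPM), UBTF (145.6 CPM) and IMP3 (139.3 CPM), whose ranges over the 8 libraries overlapped, so these 3 have no firm order, and UBTF also overlapped NPM1.

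**Figure D1:**
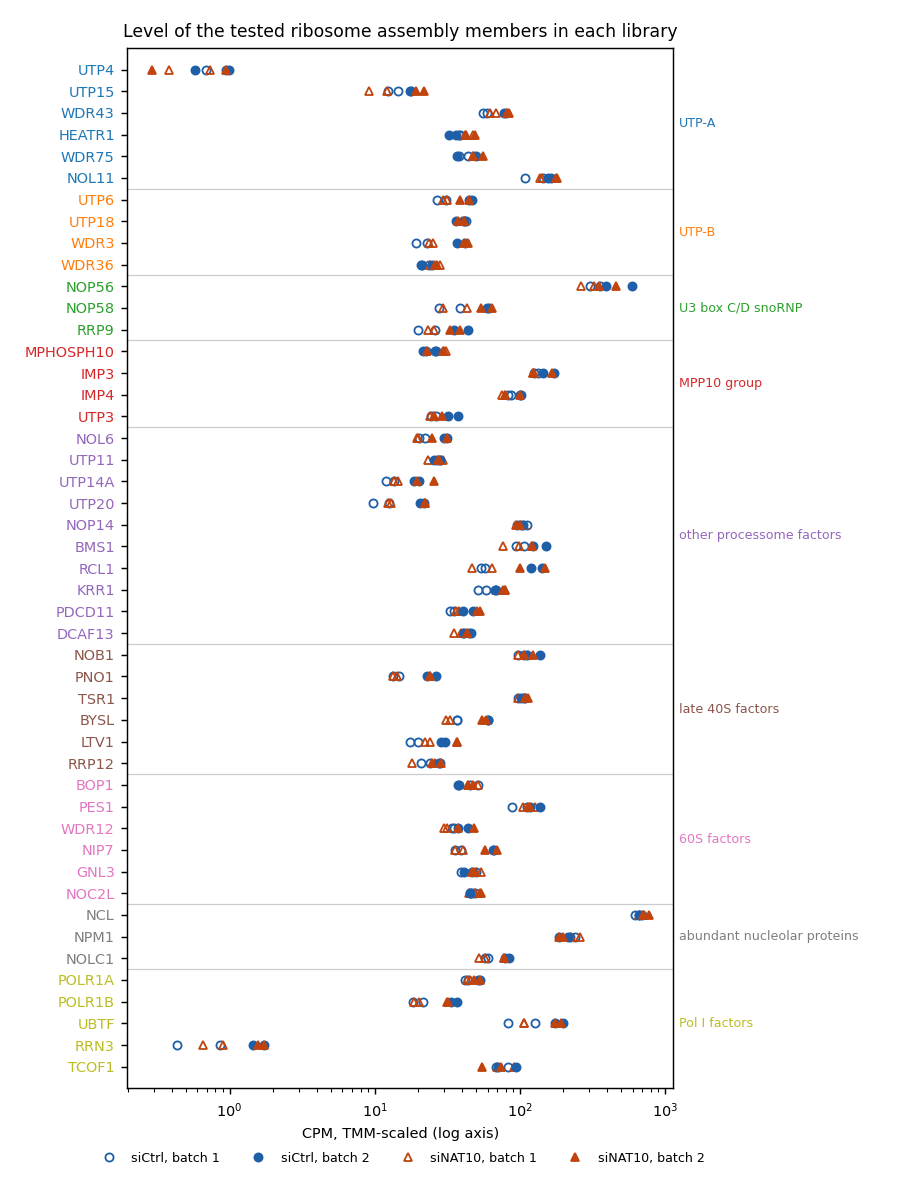
Level of each tested factor in each of the 8 libraries, in TMM-scaled CPM on a log axis, grouped by role. Circles are siCtrl and triangles siNAT10, open for batch 1 and filled for batch 2. NCL lies furthest right, near 688 CPM, UTP4 and RRN3 lie near 1 CPM, and for many genes the filled symbols lie to the right of the open ones.

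Of the 50 factors, 3 were listed at 0 counts in all 8 libraries: TBL3, a WD-repeat subunit of UTP-B, WDR46, a scaffold protein of the processome, and NOC4L, the partner of NOP14. By counting error alone, 0 counts allow up to 3 counts, or 0.107 CPM in the deepest library and 0.308 CPM in the shallowest. These zeros are not read as absence. Other genes of the nucleolus that growing cells use were also at or close to 0 in this table: NOP2, DDX24, SURF6, AATF and POLR1H had no count in any library, and fibrillarin (FBL), the methyltransferase of the U3 particle, averaged 0.146 CPM. TBL3 (chromosome 16, 1972053 to 1982929, GRCh38) is covered at its 3′ end by an exon of NOXO1 on the other strand, whereas no such overlap was found for WDR46 (chromosome 6, 33279108 to 33289247) or NOC4L (chromosome 12, 132144457 to 132152473).

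With NAT10 lowered, none of the 47 factors passed the test. In edgeR's quasi-likelihood test with batch in the model, 0 of 47 were called at an adjusted p under 0.05, where 2.28% of all tested genes were called (315 genes, 113 higher and 202 lower, or 175 higher and 279 lower with the replicate number as a block). DESeq2 also called 0 of the 47, with a lowest adjusted p of 0.0533. At an unadjusted p under 0.05, 4 factors were higher (8.51%, beside 7.46% of all tested genes) and 0 were lower (beside 8.24% of all tested genes). The median fitted log2 fold change over the factors was -0.0022, that over all tested genes -0.0024, and 23 were positive and 24 negative.

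The fitted changes were bounded closely. In 45 of the 47 factors (95.7%) the 95% interval lay within 1.5-fold of no change in either direction, as it did in 60.2% of all tested genes; the exceptions were the 2 low genes UTP4 and RRN3. The median standard error of a log2 fold change was 0.11 over the factors and 0.14 over all tested genes, which had lower counts. Seen library by library, 7 factors had every siNAT10 library above both siCtrl libraries of its own batch (14.9%, beside 6.76% of all tested genes): WDR43, HEATR1, WDR36, KRR1, PDCD11, LTV1 and GNL3. The reverse held for 2, IMP4 and BYSL (4.26%, beside 7.9% of all tested genes). Fitted within each batch alone, the median over the factors was 0.028 in batch 1 and -0.0066 in batch 2, and 29 of 47 had the same sign in both.

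**Figure D2:**
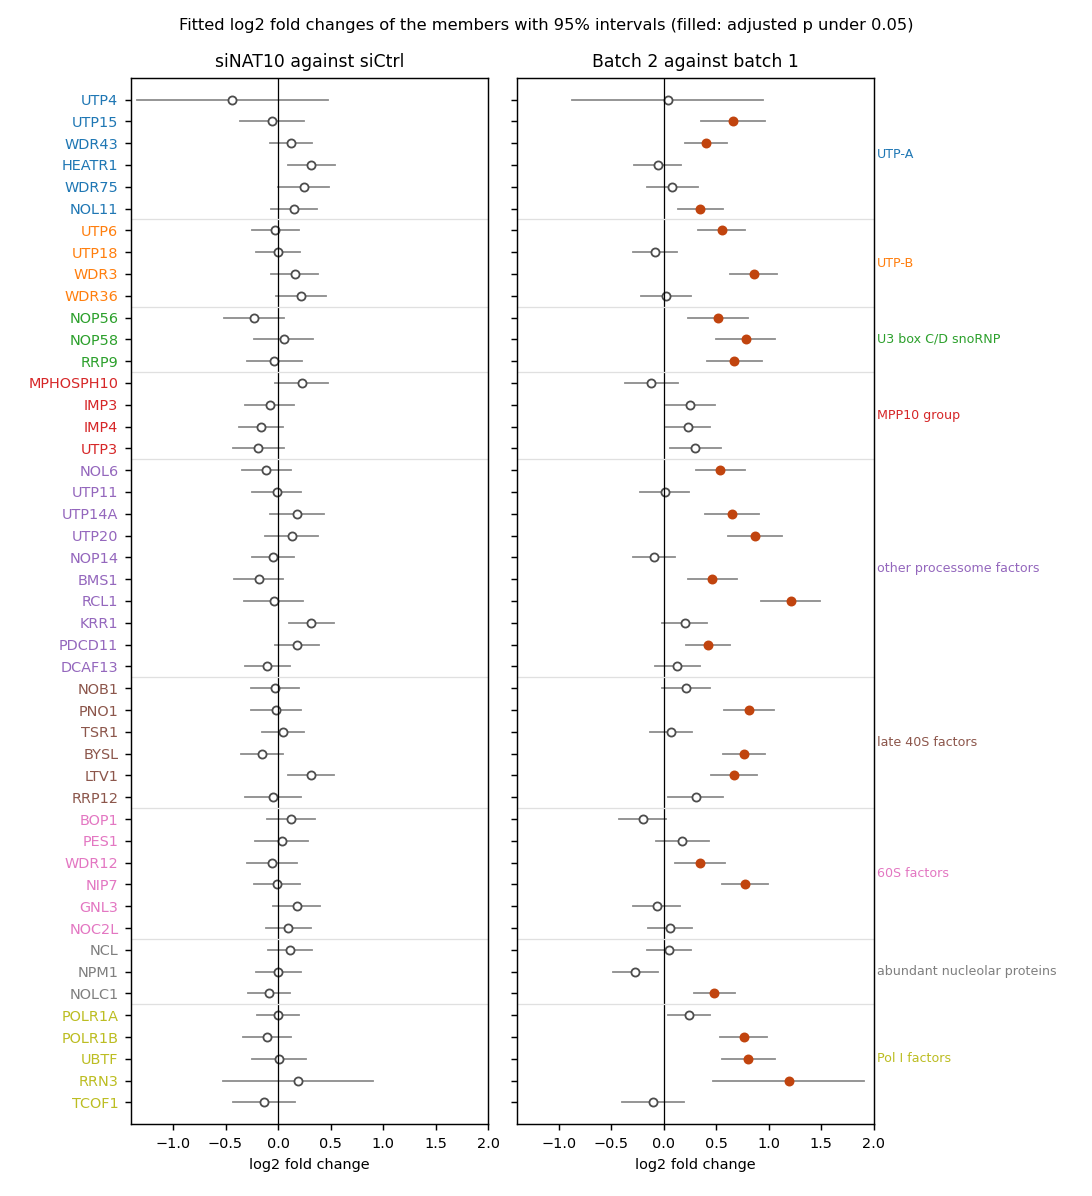
Fitted log2 fold changes (points) with 95% intervals (lines) of the 47 tested factors, for siNAT10 against siCtrl on the left and batch 2 against batch 1 on the right, from one model. Filled points have an adjusted p under 0.05: 0 on the left and 23 on the right, all 23 to the right of zero.

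The UTP-A complex, which opens assembly on the precursor, held 6 listed factors with a median log2 fold change of 0.14 after siNAT10. HEATR1 (chromosome 1, 236549005 to 236604516), a very large repeat protein also needed for Pol I transcription, stood at 37.9, 38.8, 32.6 and 36.1 CPM in siCtrl and at 47.6, 41.6, 49.2 and 42.8 CPM in siNAT10. All 4 siNAT10 libraries lay above all 4 controls. The fitted log2 fold change was 0.32 (SE 0.10, 95% interval 0.097 to 0.54), and the adjusted p was 0.13. The 3′ end of HEATR1 is covered by an exon of LGALS8 on the opposite strand, so its count is uncertain to that extent. WDR75, a WD-repeat subunit of the same complex, was at 38.4, 43.9, 36.7 and 50.2 CPM in siCtrl and 49.4, 47.3, 47.5 and 55.7 CPM in siNAT10. Here the groups overlapped, with a log2 fold change of 0.24 (SE 0.11, adjusted p 0.32).

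NOL11, the most abundant of the complex and found in animals, was at 109.4, 143.8, 156.8 and 164.3 CPM in siCtrl and 141.6, 138.5, 181.5 and 177.4 CPM in siNAT10. The overlap was wide and the log2 fold change 0.15 (SE 0.10, adjusted p 0.51). UTP4, also called cirhin, was barely counted: 0.945, 0.690, 0.984 and 0.578 CPM in siCtrl and 0.383, 0.730, 0.941 and 0.293 CPM in siNAT10. Its log2 fold change of -0.43 (SE 0.43, adjusted p 0.68) had the widest interval of all the factors, -1.34 to 0.47. UTP15 and WDR43, both WD-repeat subunits, had log2 fold changes of -0.054 and 0.12.

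UTP-B is the next complex to bind, and 4 of its 5 listed factors were tested. UTP18, the most abundant at 40.3 CPM, was nearly level: 42.6, 41.1, 36.3 and 41.4 CPM in siCtrl against 41.8, 40.3, 41.3 and 37.6 CPM in siNAT10, for a log2 fold change of -0.0022 (SE 0.099, 95% interval -0.21 to 0.21, adjusted p 1.0). WDR36, another WD-repeat subunit, had 21.2, 23.7, 20.7 and 24.9 CPM in siCtrl and 24.0, 28.02, 26.8 and 26.0 CPM in siNAT10. Within each batch its siNAT10 libraries were the higher pair, and the log2 fold change was 0.22 (SE 0.11, adjusted p 0.37). UTP6 and WDR3 had log2 fold changes of -0.028 and 0.16.

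The U3 small nucleolar ribonucleoprotein pairs its RNA with the precursor and guides its folding. NOP56, a core protein of this whole class of particles, was at 359.8, 305.9, 596.9 and 395.4 CPM in siCtrl and 265.5, 324.5, 457.0 and 354.1 CPM in siNAT10. The spread between controls of one batch exceeded the difference between the groups, and the log2 fold change was -0.23 (SE 0.13, adjusted p 0.43). NOP58, its paralog in the same core, and RRP9, a protein specific to U3, had log2 fold changes of 0.056 and -0.034.

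The MPP10 group bridges U3 and the precursor. Its namesake MPHOSPH10 was at 25.9, 22.7, 26.3 and 21.7 CPM in siCtrl and 29.9, 30.9, 22.8 and 29.6 CPM in siNAT10, for a log2 fold change of 0.23 (SE 0.12, adjusted p 0.39). All siNAT10 libraries except replicate 3 lay above all controls. MPHOSPH10 has 8 named pseudogenes, which could take or lend reads. IMP3, the most abundant of the group, was at 124.5, 133.8, 171.1 and 143.9 CPM in siCtrl and 126.0, 124.2, 166.9 and 123.9 CPM in siNAT10, with a log2 fold change of -0.080 (SE 0.11, adjusted p 0.78).

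IMP4, which like IMP3 binds MPHOSPH10, was at 87.3, 83.3, 100.7 and 102.4 CPM in siCtrl and 75.6, 78.8, 100.1 and 78.8 CPM in siNAT10, so that every siNAT10 library was below both controls of its batch. Its log2 fold change was -0.16 (SE 0.10, adjusted p 0.47). UTP3, the SAS10 homolog that contacts MPHOSPH10, was at 26.4, 24.3, 37.5 and 32.0 CPM in siCtrl and 24.0, 25.6, 25.6 and 29.1 CPM in siNAT10. The batch 2 controls were its highest libraries, and the log2 fold change was -0.19 (SE 0.11, adjusted p 0.46).

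Of the 12 other processome factors, 10 were tested. KRR1 (chromosome 12, 75490863 to 75511636), an RNA-binding protein of the processome core, had the largest positive value of all the factors. It stood at 58.0, 51.2, 68.5 and 67.6 CPM in siCtrl and at 79.0, 68.8, 79.6 and 76.8 CPM in siNAT10, and all 4 siNAT10 libraries lay above all 4 controls. Its log2 fold change was 0.32 (SE 0.10, 95% interval 0.10 to 0.53), a 1.25-fold difference with an adjusted p of 0.12, the lowest of the 47. In batch 1 alone it was 0.44 and in batch 2 alone 0.20.

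BMS1, the GTPase of the processome and the most abundant of this set, was at 94.6, 106.8, 151.7 and 123.9 CPM in siCtrl and 98.8, 77.1, 122.0 and 122.2 CPM in siNAT10. The log2 fold change was -0.19 (SE 0.11, adjusted p 0.44), and 19 named pseudogenes make its count uncertain. UTP14A (0.18), PDCD11 (0.18) and UTP20 (0.13) had positive log2 fold changes, and NOL6 (-0.11), DCAF13 (-0.10), NOP14 (-0.050), RCL1 (-0.043) and UTP11 (-0.014) negative ones. PDCD11 is the homolog of yeast Rrp5, which serves both subunits, UTP20 is a long scaffold, and RCL1 is the binding partner of BMS1. The lowest adjusted p of these 8 was 0.41, for PDCD11.

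The late factors ride with the small subunit towards the cytoplasm. LTV1 (chromosome 6, 143843338 to 143863812), released shortly before the subunit is finished, was at 19.9, 17.6, 28.6 and 30.6 CPM in siCtrl and 22.2, 24.1, 37.0 and 37.1 CPM in siNAT10. The siNAT10 pair was higher in each batch, while the groups as a whole overlapped because both groups were higher in batch 2. The log2 fold change was 0.32 (SE 0.10, adjusted p 0.13), with 0.31 in batch 1 alone and 0.33 in batch 2 alone.

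NOB1, the nuclease that makes the last cut of the small-subunit RNA and the most abundant late factor, was at 106.3, 97.2, 137.0 and 112.4 CPM in siCtrl and 97.0, 113.7, 123.9 and 107.1 CPM in siNAT10, for a log2 fold change of -0.030 (SE 0.11, adjusted p 0.93). PNO1, its binding partner, had -0.022. The GTPase-like TSR1 had 0.045, the repeat protein RRP12 -0.049, and BYSL -0.15 (adjusted p 0.48).

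The large-subunit factors and the abundant nucleolar proteins differed little between the groups. PES1, which forms a complex with BOP1 and WDR12, was the most abundant of 6, at 88.0, 111.5, 138.8 and 118.5 CPM in siCtrl and 128.2, 105.6, 116.7 and 114.0 CPM in siNAT10, with a log2 fold change of 0.037 (SE 0.12, adjusted p 0.92). GNL3 (nucleostemin), a nucleolar GTPase, had the largest value of them: 49.6, 39.2, 46.8 and 41.4 CPM in siCtrl, 50.2, 54.3, 48.7 and 47.2 CPM in siNAT10, for a log2 fold change of 0.18 (SE 0.11, adjusted p 0.45). BOP1 and WDR12 had 0.12 and -0.056, and NIP7 and NOC2L -0.010 and 0.098.

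Nucleolin (NCL), which binds the precursor and nucleolar chromatin, was at 624.6, 695.3, 660.6 and 662.7 CPM in siCtrl and 715.6, 665.8, 771.8 and 706.2 CPM in siNAT10. Its log2 fold change was 0.11 (SE 0.098, adjusted p 0.64). NPM1, a histone and ribosome chaperone with 49 named pseudogenes, had 0.0036, and NOLC1, a chaperone of small nucleolar ribonucleoproteins, had -0.087.

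Of the Pol I factors, UBTF, the architectural protein of active ribosomal genes, was at 83.2, 126.8, 174.3 and 197.6 CPM in siCtrl and 106.3, 107.1, 175.5 and 193.8 CPM in siNAT10. The groups had nearly the same means, with a log2 fold change of 0.0074 (SE 0.12, adjusted p 0.99). RRN3, the factor that brings Pol I to its promoters, was at 0.436, 0.863, 1.45 and 1.73 CPM in siCtrl and 0.657, 0.904, 1.73 and 1.56 CPM in siNAT10, with a log2 fold change of 0.19 (SE 0.34, adjusted p 0.84) and an interval from -0.53 to 0.90. The largest Pol I subunits POLR1A and POLR1B had 0.0024 and -0.10, and treacle (TCOF1), which links Pol I to ribosomal RNA modification, had -0.14.

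The other genes of the pathway were read from the same fit. They were a written list of 97 symbols outside the 50, of which 96 matched a row and 86 were tested: 24 small-subunit factors, 46 large-subunit factors and 16 Pol I genes. Their median log2 fold change after siNAT10 was 0.015, with 45 positive and 41 negative. A single gene was called (1.16%, beside the 2.28% of all tested genes), FTSJ3, a ribosomal RNA methyltransferase of the large-subunit pathway. FTSJ3 was at 34.4, 30.3, 51.7 and 43.3 CPM in siCtrl and fell to 22.8, 25.5, 35.8 and 35.1 CPM in siNAT10, with both siNAT10 libraries below both controls in each batch. The log2 fold change was -0.42 (SE 0.11, adjusted p 0.045). This call was close to the threshold: it was lost with other size factors (adjusted p 0.051) or library size alone (0.081), and when any single library except siCtrl replicate 4 was left out, with adjusted p from 0.073 to 0.16. It was also lost without the batch term and in either batch alone (adjusted p 0.18 to 0.67).

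By the same test, the largest difference in each class of the list did not pass. ESF1, a small-subunit factor, had a log2 fold change of 0.44 (SE 0.16, adjusted p 0.16), with 54.4, 33.5, 50.3 and 54.8 CPM in siCtrl and 57.0, 55.9, 57.5 and 95.03 CPM in siNAT10. Replicate 4 of siNAT10 stood far above the rest. SDAD1, a large-subunit factor, had 12.8, 11.5, 22.8 and 19.2 CPM in siCtrl and 8.70, 8.41, 15.5 and 16.1 CPM in siNAT10, for a log2 fold change of -0.46 (SE 0.12, adjusted p 0.058). With DESeq2 SDAD1 passed (adjusted p 0.031), as ESF1 did with no filter on low counts (0.021). NMD3, an export factor of the large subunit, passed in 1 fit of those run, without siCtrl replicate 3 (log2 fold change -0.45, adjusted p 0.049). TAF1B, a subunit of the Pol I selectivity factor, had 6.40, 5.70, 4.40 and 7.51 CPM in siCtrl and 3.72, 3.96, 4.71 and 5.47 CPM in siNAT10, for a log2 fold change of -0.44 (SE 0.20, adjusted p 0.29).

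**Figure D3:**
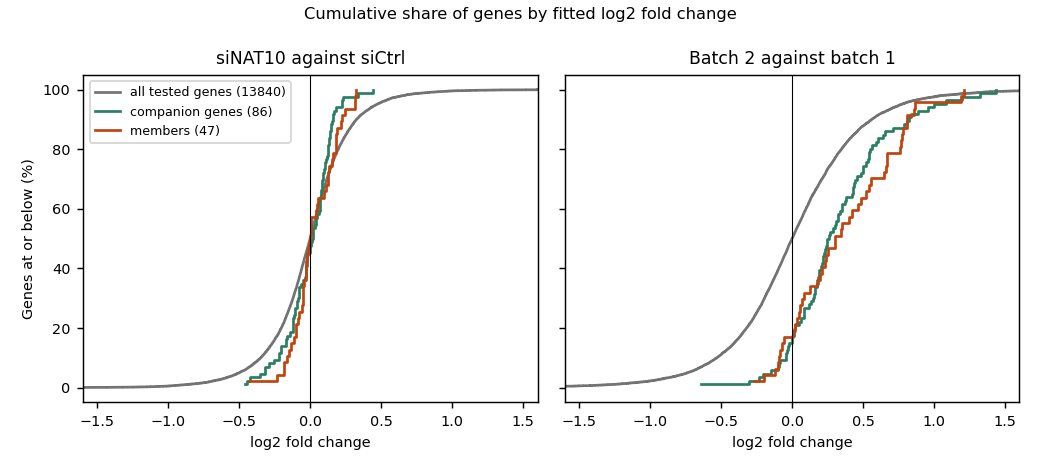
Share of genes, in percent, with a fitted log2 fold change at or below the value on the x axis, for siNAT10 against siCtrl (left) and batch 2 against batch 1 (right). The curve of the 47 factors crosses the middle near zero on the left (median -0.0022) and near 0.31 on the right, while that of all 13840 tested genes crosses near zero in both panels; the x axis is cut at 1.6 in either direction.

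Many of the factors were higher in batch 2, and the shift was seen with either siRNA. From batch 1 to batch 2, 23 of 47 rose at an adjusted p under 0.05 (48.9%, beside 13% of all tested genes) and 0 fell (beside 12.2% of all tested genes), in edgeR's quasi-likelihood test of the batch term with siRNA in the model. DESeq2 called the same 23 and 1 lower gene, NPM1, and 1 factor was lower at an unadjusted p under 0.05 (beside 18.1% of all tested genes). All 4 libraries of batch 2 lay above all 4 of batch 1 in 23 factors (48.9%, beside 11.4% of all tested genes) and below them in 1, NPM1 (2.13%, beside 11.2% of all tested genes). These 23 were not quite the 23 called. NOP56 was called although its batches overlapped, and POLR1A separated by batch but was not called (edgeR adjusted p 0.075). The median log2 fold change over the factors was 0.31, with 39 positive and 8 negative, where that of all tested genes was -5.9e-05. Their summed level was 3262 to 3401 CPM in the libraries of batch 1 and 3857 to 4229 CPM in those of batch 2.

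The shift was present in both siRNA groups. Against the batch 1 controls, the median factor stood 0.40 and 0.31 higher on the log2 scale in siCtrl replicates 3 and 4 and 0.36 and 0.28 higher in siNAT10 replicates 3 and 4, but 0.040 and 0.032 higher in siNAT10 replicates 1 and 2. In the siCtrl libraries alone, 2 against 2, 14 of the 23 were still called, beside 5.53% of all genes tested there, and the median was 0.34. With all libraries thinned to the smallest total count, 22 of the 23 were still called, all but WDR12, beside 12.6% of all genes tested there. Each of the 8 fits without one library called between 20 and 24 factors higher, beside 9.42% to 13.5% of all genes. NAT10 itself was higher in batch 2 as well, by 0.67 on the log2 scale (SE 0.14, adjusted p 0.0021). Of the hepatocyte markers, only the regulator HNF4A had every batch 2 library above every batch 1 library, as 11.4% of all tested genes did. It was at 242.0 to 300.5 CPM in batch 1 and 417.9 to 475.8 CPM in batch 2, whereas the summed hepatocyte markers overlapped. What else differed between the batches is not given in the labels, and the part of any of these in the shift was not tested.

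By role, the called genes were spread over 8 of the 9 groups. The U3 group had 3 of 3, Pol I factors 3 of 5, late factors 3 of 6, UTP-A 3 of 6, UTP-B 2 of 4 tested, the other processome factors 6 of 10 tested, large-subunit factors 2 of 6 and the abundant proteins 1 of 3. The MPP10 group had 0 of 4, although IMP3, IMP4 and UTP3 had positive values of 0.25, 0.23 and 0.30 with intervals above 0. RCL1 (chromosome 9, 4792944 to 4885917) rose the most. Its batch 1 levels were 53.9 and 57.5 CPM with siCtrl and 63.9 and 46.6 CPM with siNAT10, and its batch 2 levels 143.2, 119.6, 150.1 and 99.8 CPM in the same order, so that each batch 2 library was above every batch 1 library. The log2 fold change was 1.21 (SE 0.13, adjusted p 1.5e-05), or 2.31-fold.

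WDR3, a WD-repeat subunit of UTP-B, was at 19.3, 23.1, 25.2 and 23.6 CPM in batch 1 (siCtrl, then siNAT10) and 37.1, 42.1, 44.1 and 41.5 CPM in batch 2, a log2 fold change of 0.86 (SE 0.11, adjusted p 4.2e-05). Its 3′ end is covered by an exon of SPAG17 on the opposite strand. BYSL was at 36.8, 37.2, 30.8 and 33.1 CPM in batch 1 and 60.3, 60.4, 54.6 and 58.8 CPM in batch 2, a log2 fold change of 0.76 (SE 0.095, adjusted p 4.3e-05). For this gene the 2 controls of each batch differed by far less than the batches did. NIP7, which binds the precursor in large-subunit assembly, was at 35.9, 39.5, 40.9 and 35.6 CPM in batch 1 and 65.4, 66.2, 70.0 and 57.8 CPM in batch 2, a log2 fold change of 0.77 (SE 0.10, adjusted p 7.3e-05). PNO1 was at 13.3, 14.6, 14.3 and 13.4 CPM in batch 1 and 23.0, 26.5, 24.2 and 23.9 CPM in batch 2, a log2 fold change of 0.81 (SE 0.11, adjusted p 9.7e-05).

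The other genes called were UTP20 (log2 fold change 0.87), UBTF (0.81), NOP58 (0.78), POLR1B (0.76), RRP9 (0.67), LTV1 (0.67), UTP15 (0.66), UTP14A (0.65), UTP6 (0.55), NOL6 (0.54), NOP56 (0.52), NOLC1 (0.48), BMS1 (0.46), PDCD11 (0.42), WDR43 (0.40), NOL11 (0.35), WDR12 (0.35) and RRN3 (1.19, at a low 1.17 CPM). In siCtrl alone RRN3 had too few counts to be tested, and BMS1, NOL11, NOLC1, NOP56, PDCD11, UTP15, WDR12 and WDR43 did not pass. The log2 fold changes of these 8 in siCtrl alone ran from 0.24 for WDR12 to 0.58 for NOP56. BMS1 (0.46), NOL11 (0.35), NOLC1 (0.48), WDR43 (0.47) and NOP56 were close to or above their values over all libraries. UTP15 (0.40), PDCD11 (0.37) and WDR12 were below theirs.

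The means of some of these genes show the size of the step. UTP20 went from 11.9 ± 1.45 CPM in batch 1 to 21.7 ± 0.874 CPM in batch 2 (SD, n = 4 in each batch here and below, both siRNA groups pooled), and POLR1B from 19.7 ± 1.52 to 33.6 ± 2.62 CPM. NOP58 went from 34.8 ± 7.30 to 60.02 ± 4.48 CPM. Over the 18 genes of the last paragraph the adjusted p ran from 1.0e-04 for UTP20 to 0.032 for WDR12.

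**Figure D4:**
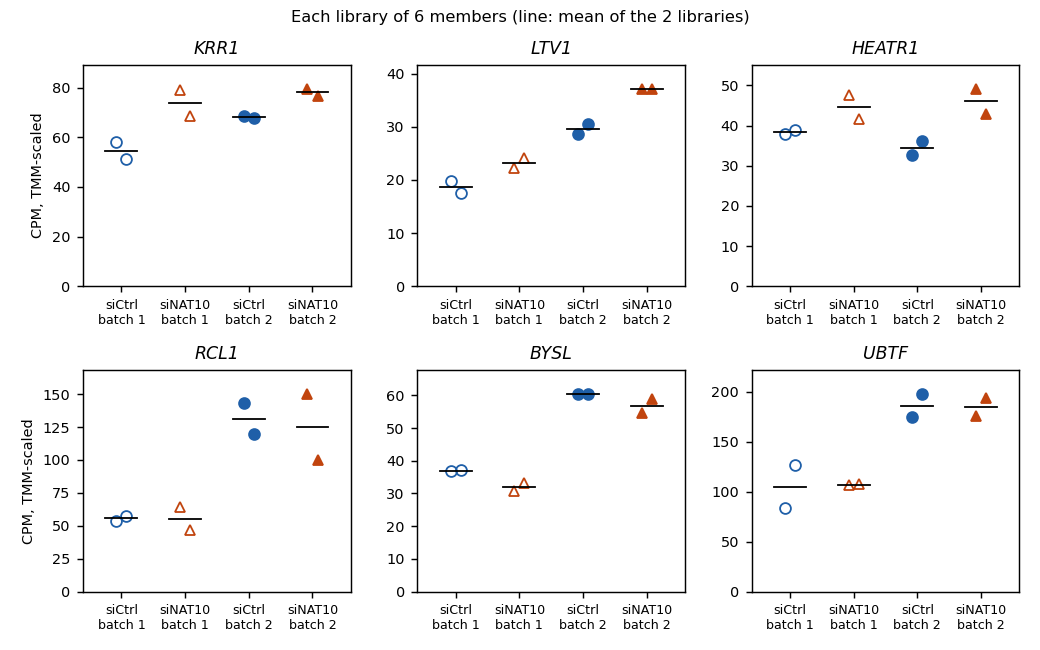
Level of 6 factors in each library, in TMM-scaled CPM on a linear axis from 0, by siRNA group and batch, with a line at the mean of each pair. KRR1, LTV1 and HEATR1 (top) had the largest positive siNAT10 values, each near 0.32 on the log2 scale, and RCL1, BYSL and UBTF (bottom) differ by batch.

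The remaining 24 tested factors did not pass between the batches. Their log2 fold changes were positive for RRP12 (0.31), UTP3 (0.30), IMP3 (0.25), POLR1A (0.24), IMP4 (0.23), NOB1 (0.21), KRR1 (0.20), PES1 (0.18), DCAF13 (0.13), WDR75 (0.085), TSR1 (0.072), NOC2L (0.059), NCL (0.051), UTP4 (0.038), WDR36 (0.021) and UTP11 (0.0086). They were negative for NPM1 (-0.27), BOP1 (-0.20), MPHOSPH10 (-0.12), TCOF1 (-0.10), NOP14 (-0.095), UTP18 (-0.082), GNL3 (-0.068) and HEATR1 (-0.056). NPM1, the lowest, was at 240.2, 222.3, 225.9 and 259.8 CPM in batch 1 and 215.4, 186.8, 199.4 and 185.3 CPM in batch 2 (adjusted p 0.060). Calls were mixed within single complexes. In UTP-B, WDR3 and UTP6 rose while UTP18 and WDR36 had 95% intervals of -0.29 to 0.13 and -0.22 to 0.26. In UTP-A, UTP15 rose while HEATR1 had -0.28 to 0.17. Whether these genes differ from one another was not tested.

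Overlapping genes and copies touch some of these counts. The last 500 bases of 11 factors are covered by an exon of another gene on the opposite strand, and 14 have named pseudogenes. Among those 14 are NOP56, NIP7 and RRN3 with 3 each and KRR1 and LTV1 with 1 each, so their counts are uncertain too. Of the 27 with neither, 25 were tested. Between the batches 13 of these 25 rose, beside 13% of all tested genes. Their median batch log2 fold change was 0.35, where that of all tested genes was -5.9e-05, and their median for siNAT10 was -0.022.

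The other genes of the pathway shifted between the batches in the same direction. Of the 86 tested, 37 were higher in batch 2 (43%, beside 13% of all tested genes) and 1 lower (beside 12.2%), EFL1 (log2 fold change -0.64, adjusted p 0.0049), a GTPase that helps release a late factor from the large subunit. Their median log2 fold change was 0.25, with 72 positive and 14 negative. Reading this list by batch was chosen after the factors' values had been seen.

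Whether the effect of siNAT10 on the factors differed by batch was tested next. The interaction term of siRNA with batch passed for 0 of the 47 factors in edgeR's quasi-likelihood test (beside 0% of all tested genes), and DESeq2 also called 0. At an unadjusted p under 0.05 there were 0 factors, beside 3.04% of all tested genes, and the lowest unadjusted p among the factors was 0.057, for UTP15. UTP15 was at 12.4 and 14.6 CPM in siCtrl and 9.19 and 12.1 CPM in siNAT10 in batch 1, and at 17.7 and 17.6 CPM in siCtrl and 21.7 and 19.4 CPM in siNAT10 in batch 2.

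Because many of the factors moved together between the batches, their promoters were searched for a short motif that is common in front of genes of growth. It was the E-box CACGTG, which reads the same on both strands and was the only motif searched. The search covered the window from 250 bases before to 50 bases after the start of each gene in RefSeq (GRCh38.p14). Of the 43 factors with an entry, 15 held the motif (34.9%), as did 21 of 82 of the other pathway genes with an entry (25.6%), 10.2% of the tested genes with an entry and 7.43% of all promoters in that table. RRP12, MPHOSPH10, DCAF13, BOP1, NOLC1, TCOF1 and NOP58 had no entry. Of the factors that rose in batch 2, 9 of 21 held it (42.9%), and of the other tested factors 5 of 19 (26.3%). Among all tested genes, those higher in batch 2 held it in 11.02% and those lower in 10.0%. These shares are descriptions of letters in a window and show no binding, and the search was chosen after the batch values had been seen.

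The windows of 30 bases around the motif are shown for the 9 factors that both held it and rose in batch 2, in the order of their log2 fold change, because they let the flanking bases be compared. The 6 capitals mark the motif, and each is read 5′ to 3′ on the gene's own strand.
RCL1: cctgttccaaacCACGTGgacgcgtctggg
UTP20: cttttttccgtcCACGTGacccactcaggc
PNO1: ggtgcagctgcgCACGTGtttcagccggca
BYSL: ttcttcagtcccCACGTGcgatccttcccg
RRP9: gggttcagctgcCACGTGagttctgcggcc
LTV1: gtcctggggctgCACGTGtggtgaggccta
UTP14A: accttgggcCACGTGgaaaccaggggccag
NOL6: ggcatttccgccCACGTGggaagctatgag
WDR43: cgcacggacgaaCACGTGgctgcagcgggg

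In GRCh38.p14 these windows lie at chr9:4792936-4792965 (RCL1, plus strand), chr12:101280083-101280112 (UTP20, plus), chr2:68157885-68157914 (PNO1, plus), chr6:41921515-41921544 (BYSL, plus) and chr3:51941892-51941921 (RRP9, minus). The remaining windows lie at chr6:143843354-143843383 (LTV1, plus), chrX:129905914-129905943 (UTP14A, plus), chr9:33473894-33473923 (NOL6, minus) and chr2:28894658-28894687 (WDR43, plus). The motif begins within the first 50 transcribed bases in 11 of its 17 occurrences among the factors, here in RCL1, PNO1, BYSL, LTV1, NOL6 and WDR43. It begins 5 bases before the start of RRP9, 10 before that of UTP20 and 241 before that of UTP14A. UTP18, NOP14, UTP4, IMP4 and PES1, which did not pass between the batches, hold the same 6 letters, as does WDR46.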

How the data were processed

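The authors deposited raw counts per Ensembl gene in whole numbers, made with STAR 2.7.9a alignment to GRCh38 and featureCounts (Subread) after Trim Galore 0.6.10 and cutadapt 3.5, per the submitters' processing notes. The annotation release, the use of strand and the handling of multi-mapped reads are not given in the sources used here, and the sources disagree on the kit's orientation (forward or reverse). Both can move reads between overlapping genes and copies. Every column of counts was matched to 1 library by its description, and 0 were left unused.

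Symbols and positions came from GENCODE 44 on GRCh38. Genes were kept by filterByExpr (minimum count 10) and fitted in R 4.3.3 with edgeR 4.0.16 (TMM, quasi-likelihood F test, batch and siRNA as additive terms), with Benjamini-Hochberg adjustment over all 13840 tested genes and a threshold of 0.05. Intervals at 95% used the moderated spread with 16.3 degrees of freedom. Depth intervals and floors cover counting error only. Alternatives were DESeq2 1.42.0, other scalings and filters, thinning, no batch term, a replicate block, each batch alone and each library left out. The script was tested on data simulated from the same additive model, which does not test whether that model suits these libraries.

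Values per library were given for the 5 largest differences in each direction, for the most abundant and the most different factor of each role, for the 5 lowest batch p-values and, of the 97 other pathway genes, for called ones and the largest of each class. The factors and lists were chosen with earlier results of these data known, so no p is given over a list. Same-numbered libraries of the groups deviated together (correlation 0.356 to 0.451 over genes), as they share a batch. Beyond the batch means the correlations were -0.062 and 0.167. Replicates of one group and batch differed by more than counting noise (chi-square of 15.8 to 26.9 per degree of freedom).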

Additional observations from a re-analysis of the deposited data

Results flagged for a closer look

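Among 96 groups of 4 values (NAT10 or 1 of the 47 tested factors in one siRNA group), 3 held a library set apart from the rest. A chance of 1 in 20 would give about 4.8 for like libraries and independent groups. Each group here spanned 2 batches and the genes shared libraries, so 4.8 is not a chance expectation for these data. All 3 were siNAT10 replicate 3, in batch 2, and all in the MPP10 group. MPHOSPH10 was lowest there, at 22.8 CPM against 29.6 to 30.9 CPM in the other siNAT10 libraries. IMP3 was highest, at 166.9 CPM against 123.9 to 126.0 CPM, and IMP4 was highest, at 100.1 CPM against 75.6 to 78.8 CPM. The batch 2 controls were at 26.3 and 21.7 CPM for MPHOSPH10, 171.1 and 143.9 CPM for IMP3 and 100.7 and 102.4 CPM for IMP4. Replicate 3 of siNAT10 lay within or just below these control ranges. Replicate 4, the other siNAT10 library of batch 2, lay outside them, at 29.6, 123.9 and 78.8 CPM.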

How the results depend on the processing

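None of the tested factors was called for siNAT10 in any fit run, and no called value changed sign in any of them. Over all genes, called higher and lower were 113 and 202 in the main analysis, 256 and 345 with DESeq2, 227 and 368 with no filter on low counts, 1 and 14 with no batch term, 63 and 110 with batch 1 only, 0 and 0 with batch 2 only, and 28 to 107 and 47 to 179 when one library was left out. With the replicate block, 175 were higher and 279 lower, and it changed no call of the factors or of the pathway list. The factors' median for siNAT10 was 0.036 with library size alone (where that of all genes was 0.037), 0.028 in batch 1 alone and -0.020 to 0.038 with one library left out. Of the factors, 14 were higher by batch in the siCtrl libraries alone, and 1 (NPM1) was lower with DESeq2, with library size alone, and in 0 to 1 with one library left out. Of the pathway list, 2 were called with DESeq2 and with no filter, 0 with other size factors (RLE), library size alone, no batch term, batch 1 alone or batch 2 alone, and 0 to 1 with one library left out (FTSJ3 without siCtrl replicate 4, NMD3 without siCtrl replicate 3). Its median was 0.055 with library size alone, -0.016 in batch 2 alone and -0.0071 to 0.011 with one library left out. NAT10 was at -1.58 in batch 2 alone, not past the threshold (adjusted p 0.086). The cause of these moves was not tested, except that batch fits and fits with a library left out hold fewer samples. UTP4 and RRN3, with 3 to 31 counts a library, had intervals too wide to bound a change within 1.5-fold.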
